A study of Mus musculus with 6 samples.

Results

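The nuclear genes of the respiratory chain and ATP synthase were described in RNA from mouse bone marrow LSK cells, which lack lineage markers, carry Sca-1 and c-Kit and are enriched for blood stem and progenitor cells. Members were the protein-coding genes whose symbols begin with Ndufa, Ndufb, Ndufc, Ndufs, Ndufv, Sdha to Sdhd, Uqcr, Cox4 to Cox8 or Atp5. Assembly factors were left out, namely 8 genes named Ndufaf and 4 named Sdhaf. This gave 86 genes with 85 symbols, of 54532 genes in the files and 21918 protein-coding ones. They were 38 genes of complex I, 4 of complex II, 8 of complex III, 18 of complex IV and 18 of complex V. The symbol rule also matched 13 genes that are not protein-coding, which were not members.

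The respiratory chain passes electrons from NADH and succinate to oxygen. Complexes I, III and IV pump protons across the inner mitochondrial membrane, complex II feeds in electrons from the citrate cycle without pumping, and complex V uses the proton gradient to make ATP. All subunits of complex II and most subunits of the others are encoded in the nucleus, while a small set of core subunits of complexes I, III, IV and V is encoded in mitochondrial DNA. Blood stem cells are known for relying largely on glycolysis at rest and for raising mitochondrial respiration when they divide and differentiate.

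Of the 6 libraries, 3 were labelled Phf6fl-R274X/Y, without Cre (controls), and 3 were labelled Vav1-Cre; Phf6fl-R274X/Y (R274X libraries). All 6 therefore carried the floxed allele of Phf6, an X-linked gene for a nuclear PHD finger protein, and R274X names a premature stop codon. Vav1-Cre is active in blood cells and was present in every R274X library and in no control, so an effect of Cre itself and one of the allele cannot be told apart. The labels give no age and no replicate numbers, and do not say whether each library is a different animal. The p-values therefore reflect how far these libraries vary, and that variation may be technical.

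Library totals ran from 17200917 to 18106065 counts in the controls and from 15406314 to 16896472 in the R274X libraries. Phf6 itself averaged 31.6 ± 1.98 CPM without Cre and 9.01 ± 1.08 with it (SD, n = 3 each), 3.51-fold lower (adjusted p = 6.67e-06). CPM are counts divided by a library size that edgeR scales with its trimmed mean of M values (TMM), and adjusted p is from edgeR's quasi-likelihood test over all 14608 tested genes, with 0.05 as the threshold. Of 8 genes that mark LSK cells, 6 were lower in R274X libraries, among them Kit and Cd34, and 1, Ly6a, which encodes Sca-1, was higher. Their summed level was 1563 to 1637 CPM in controls and 1172 to 1315 CPM in R274X libraries. Immunoglobulin genes took 0.29% to 1.18% of counts in controls and 4.45% to 7.95% in R274X libraries. Of 53 tested markers of other cell types, 28 were higher and 2, Flt3 and Nkg7, lower in R274X libraries. For comparison with both lists, 10.1% of all tested genes were higher and 7.89% lower. Flt3 is on both lists, so it is also 1 of the 6 lower LSK genes.

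To show regulatory sequence next to the levels, promoter windows of members were searched for the NRF1 consensus, whose letters are the capitals in the lines that follow and read the same on both strands. NRF1 is a transcription factor known for binding promoters of respiratory chain genes. RefSeq (build GRCm38.p6) gave a window for 67 members, and the 250 bases before the first listed start were read on both strands. The letters stood in 4 of these 67 windows (5.97%), against 0.781% of 27025 promoters of all genes. The stretches that end with the match follow, read 5′ to 3′ on the gene's strand, with the match in capitals.

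Atp5g2, chr15:102671080-102671109, minus strand: gcgactcgttggctccggccGCGCATGCGC
Atp5k, chr5:108434440-108434469, minus strand: ggggcagcgctttcactgcgGCGCATGCGC
Cox6a1, chr5:115349111-115349140, minus strand: agatggggcacaggaacgggGCGCATGCGC
Ndufa11, chr17:56717682-56717711, plus strand: tcggtacaaacctgcactgcGCGCATGCGC

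The match began 42 bases before the RefSeq start in Atp5g2, 50 in Atp5k, 162 in Cox6a1 and 60 in Ndufa11, and the Atp5k stretch overlaps the first bases of that gene as GENCODE M21 bounds it. The Atp5g2 stretch lies wholly inside that gene in GENCODE M21, which places the outermost start farther upstream than the RefSeq start used here. All 4 genes were higher in R274X libraries by the test on TMM-scaled counts, of which Atp5g2 and Ndufa11 did not pass with an offset for gene length (adjusted p = 0.1 each). By the first of these fits the letters stood in 4 of 32 windows of such members and in 0 of 33 windows of members that did not pass. The letters CCGGAAG, read by ETS factors such as GABPA, stood in 16.4% of member windows and 7.05% of all windows. They were in 5 of the 32 windows of higher members and in 6 of the 33 others. The YY1 letters AANATGGC were in 5.97% and 3.93%, and TATAAA in 8.96% of member windows and 13.0% of all. The letters CCGGAAG and AANATGGC can share bases, but no member window held both. Member windows had a median GC content of 56% and 14 CpG dinucleotides, against 52% and 6 over all promoters. A match describes letters and is not evidence of binding.

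Most members stood somewhat higher in the R274X libraries. Of 81 tested members, 39 passed the test as higher (48.1%), 1 passed as lower and 41 did not pass. Over all tested genes, 10.1% passed as higher and 7.89% as lower. The median log2 fold change of the members was 0.30, which is 1.23-fold, against -0.02 over all tested genes, and 78 of 81 members lay above 0 (47.8% of all genes did). In 56 members the 3 R274X libraries all lay above the 3 controls, and in 2 they all lay below, against 18.9% and 18.3% of all tested genes. In a bulk sample, a change in the share of cells of a type and a change in RNA per cell cannot be told apart.

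The step differed between libraries of the same group. Summed over members, the level was 13265, 12322 and 13088 CPM in controls 1 to 3 and 17156, 15534 and 14584 CPM in R274X libraries 1 to 3, so the groups did not overlap. R274X library 1 held the highest value of 71 of the 81 tested members, and control 2 held the lowest value of 53. As a share of raw counts, without TMM, the members took 1.36% ± 0.0249 in controls and 1.48% ± 0.0794 in R274X libraries (SD, n = 3 each), a ratio of 1.09, and these shares did not overlap either.

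**Figure D1:**
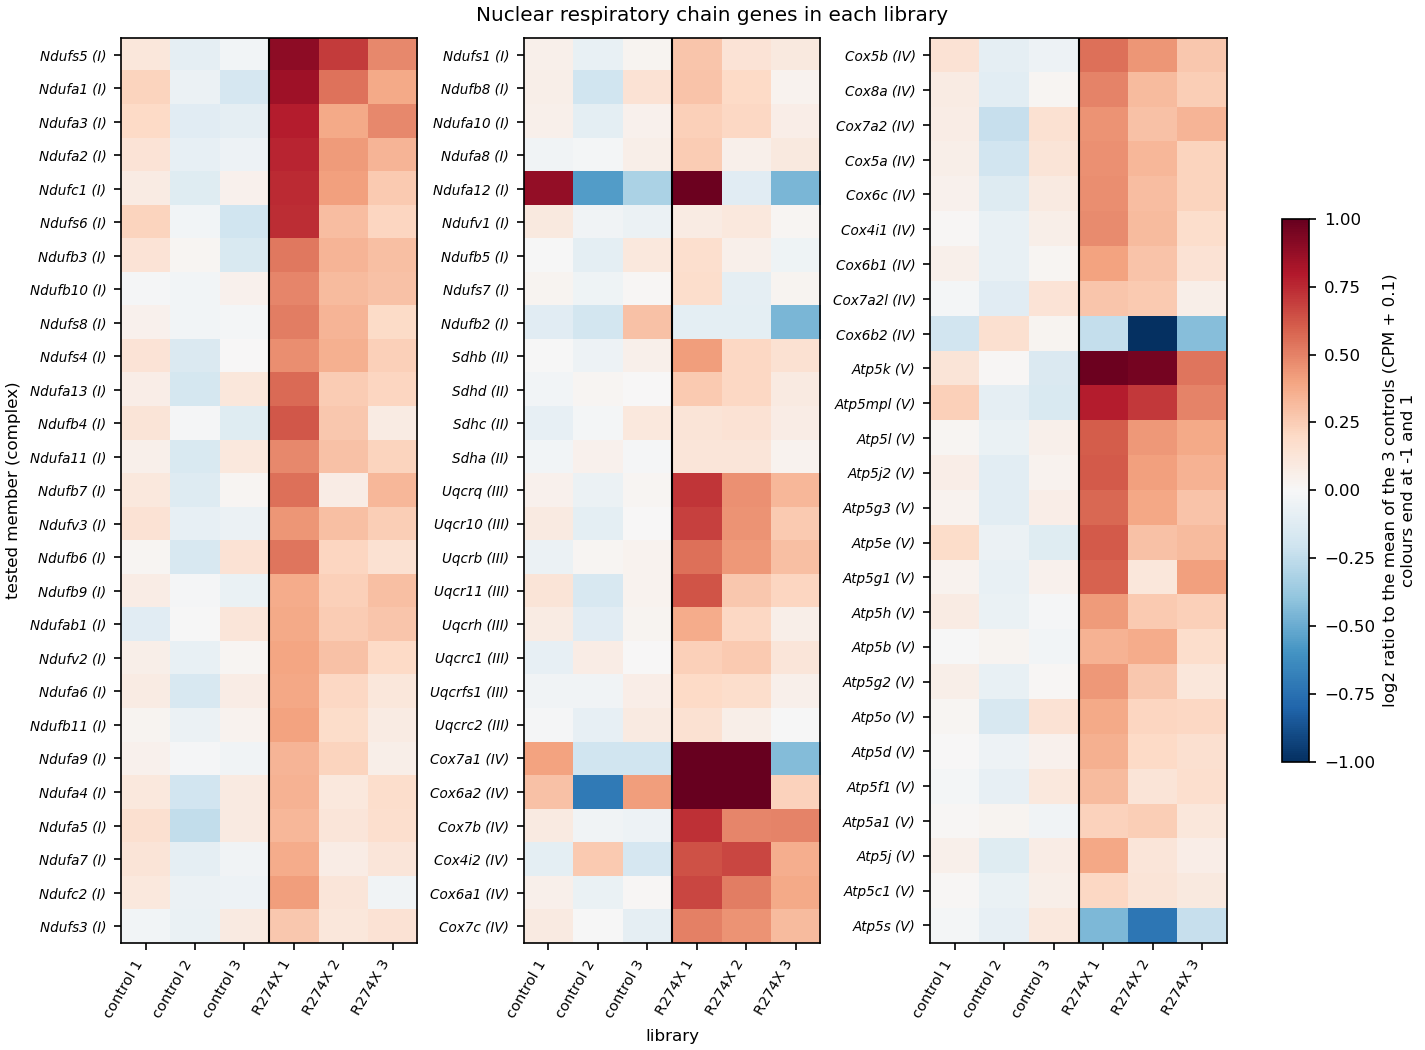
Each row is a tested member with its complex, each column a library, and colour gives the log2 ratio to the mean of the 3 controls (CPM + 0.1; colours end at -1 and 1). R274X library 1 is the darkest column for most genes and holds the highest value of 71 members, while Atp5s and Cox6b2 are lower in all 3 R274X libraries. Of the tested members 1 is not drawn.

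The count of higher members depended on the libraries and on the model. Leaving out control 2 left 12 higher members (4.56% of all genes passed as higher) and leaving out R274X library 1 left 17 (4.73%). Without control 1, control 3 or R274X library 2 the count was 25 each (5.61%, 7.71% and 5.14% of all genes). Without R274X library 3 it was 51 (12.5%). A fit with each library's immunoglobulin percent as a covariate, added after the data were seen, left 0 higher and 0 lower members by edgeR (2 at an unadjusted p under 0.05, Cox7b higher and Ndufb2 lower), with 0.465% of all genes higher and 0.0479% lower. That percent does not overlap between the groups, so the covariate and the genotype cannot be told apart in this fit. Scaling by total counts alone moved the median of all genes by -0.17, and 17 members passed as higher and 2, Atp5s and Cox6b2, as lower, beside 6.17% and 21.6% of all genes. Total-count scaling moves all genes alike. The members' median less that of all genes was 0.32 with TMM and 0.22 with an offset for gene length. The split of calls over all genes was 1469 higher to 1152 lower with TMM, 1215 to 1430 with upper-quartile scaling and 901 to 3153 with total counts.

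Complex I, which takes electrons from NADH, had 15 higher members of 37 tested and 0 lower, with a median log2 fold change of 0.30. Its 7 nuclear core subunits, which include those that carry the flavin, the iron-sulphur clusters or the quinone site, had a median of 0.17. Ndufs8 and Ndufv2 passed the test. The 30 tested accessory subunits had a median of 0.31 and 13 higher members. The core genes were longer, at a median of 2.178 kb of exons against 1.316 kb, and length moved with the change, as described further on.

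Ndufs5, an accessory subunit facing the intermembrane space (chromosome 4, 123712710 to 123718202, GRCm38), stood highest among complex I genes by its change. It measured 71.2, 61.6 and 64.4 CPM in controls and 121.9, 106.8 and 91.6 CPM in R274X libraries. Every R274X library lay above every control, with a log2 fold change of 0.70 ± 0.102 (SE) and an adjusted p of 0.00121.

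Ndufb10, a membrane-arm accessory subunit, measured 117.0, 115.3 and 121.0 CPM in controls and 165.6, 146.3 and 144.5 CPM in R274X libraries. The groups did not overlap, the log2 fold change was 0.37 ± 0.0755 (SE) and the adjusted p 0.00589. Ndufa2, an accessory subunit of the matrix arm, rose from 97.3 ± 8.18 to 139 ± 22.5 CPM (mean ± SD of 3 libraries each; adjusted p = 0.011). Ndufa3, a small membrane subunit, rose from 77.9 ± 9.52 to 114 ± 17.5 CPM (mean ± SD of 3 libraries each; adjusted p = 0.0136). In both genes R274X library 1 was the highest of all 6 libraries.

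Among the core subunits, Ndufs8, which holds iron-sulphur clusters, rose from 118 ± 2.93 to 150 ± 17.0 CPM (mean ± SD of 3 libraries each; adjusted p = 0.0137). It did not pass with the length offset (adjusted p = 0.0583). Ndufv1, which binds NADH and flavin, measured 128.7, 117.6 and 115.8 CPM in controls and 127.9, 129.6 and 122.4 CPM in R274X libraries. These values overlap, and its log2 fold change was 0.07 ± 0.0722 (SE; adjusted p = 0.553). Ndufs7, next to the quinone site, stood at 0.05 on that scale (adjusted p = 0.735). For Ndufs1, the large iron-sulphur subunit, it was 0.17 (adjusted p = 0.149), and with the length offset 0.27 (adjusted p = 0.043). With total-count scaling the values of Ndufv1 and Ndufs7 turned negative, at -0.10 and -0.12.

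Ndufa4, which is placed in complex I by name and is now regarded as a complex IV subunit, had a log2 fold change of 0.21 and an adjusted p of 0.151. Its paralogue Ndufa4l2, known to respond to hypoxia, had 0 counts in each control and 3, 5 and 0 counts in the R274X libraries, too few to test. The lowest log2 fold change in complex I was that of Ndufb2, at -0.22 (adjusted p = 0.419). One pattern was chosen after its values were seen: Ndufa12, an accessory subunit, measured 72.8, 26.9 and 31.8 CPM in controls and 78.4, 36.6 and 28.9 CPM in R274X libraries. Control 1 and R274X library 1 were high and the other 4 low, so this split crosses the genotypes.

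Complex II, succinate dehydrogenase, had the smallest median of the 5 complexes, at 0.15 with TMM scaling and -0.02 with total-count scaling. Sdhb, the iron-sulphur subunit (chromosome 4, 140961203 to 140979193, GRCm38), measured 145.4, 140.7 and 150.7 CPM in controls and 194.6, 168.3 and 161.6 CPM in R274X libraries. The groups did not overlap, and Sdhb passed the test narrowly, with a log2 fold change of 0.26 ± 0.0814 (SE) and an adjusted p of 0.0409. It passed in 1 of the 6 fits that leave out a library and did not pass with an offset for gene length (adjusted p = 0.0643; over 21 alternatives the adjusted p ran from 0.0126 to 0.986).

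For Sdha, which binds flavin and oxidises succinate, the log2 fold change was 0.09, with an adjusted p of 0.39. The membrane anchors Sdhc and Sdhd had 0.11 (adjusted p = 0.308) and 0.19 (adjusted p = 0.0887). As a share of raw counts, complex II stood at 0.0730% ± 0.00240 in controls and 0.0723% ± 0.00148 in R274X libraries (SD, n = 3 each), with overlapping groups. The raw shares of complexes I and III overlapped between the groups too, and those of complexes IV and V did not. The ratio of these shares was 0.991, against 1.07 for complex I, 1.07 for complex III, 1.14 for complex IV and 1.09 for complex V.

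Complex III, which passes electrons from ubiquinol to cytochrome c, had 3 higher members of 8, all of them small subunits. Uqcrq (chromosome 11, 53427922 to 53430831, GRCm38) measured 133.7, 124.6 and 131.9 CPM in controls and 213.2, 178.6 and 163.5 CPM in R274X libraries. Its log2 fold change was 0.51 ± 0.0928 (SE), with an adjusted p of 0.00329 and no overlap of the groups. Uqcrb, which helps to form the quinone site, rose from 87.1 ± 3.02 to 117 ± 9.99 CPM (mean ± SD of 3 libraries each; adjusted p = 0.00331).

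Uqcr10, another small subunit, rose from 108 ± 6.95 to 151 ± 22.4 CPM (mean ± SD of 3 libraries each; adjusted p = 0.0088). Uqcr11 did not pass, at an adjusted p of 0.052 and a log2 fold change of 0.38. The 5 small subunits had a median log2 fold change of 0.43. The core proteins Uqcrc1 and Uqcrc2 and the Rieske iron-sulphur protein Uqcrfs1 had 0.21, 0.07 and 0.14, and none of these 3 passed. The adjusted p values were 0.0745 for Uqcrc1, 0.569 for Uqcrc2 and 0.201 for Uqcrfs1, and Uqcrc1 passed with the length offset (adjusted p = 0.0479). The difference between the small and the large subunits was not tested, and their median lengths were 0.876 kb and 2.552 kb.

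**Figure D2:**
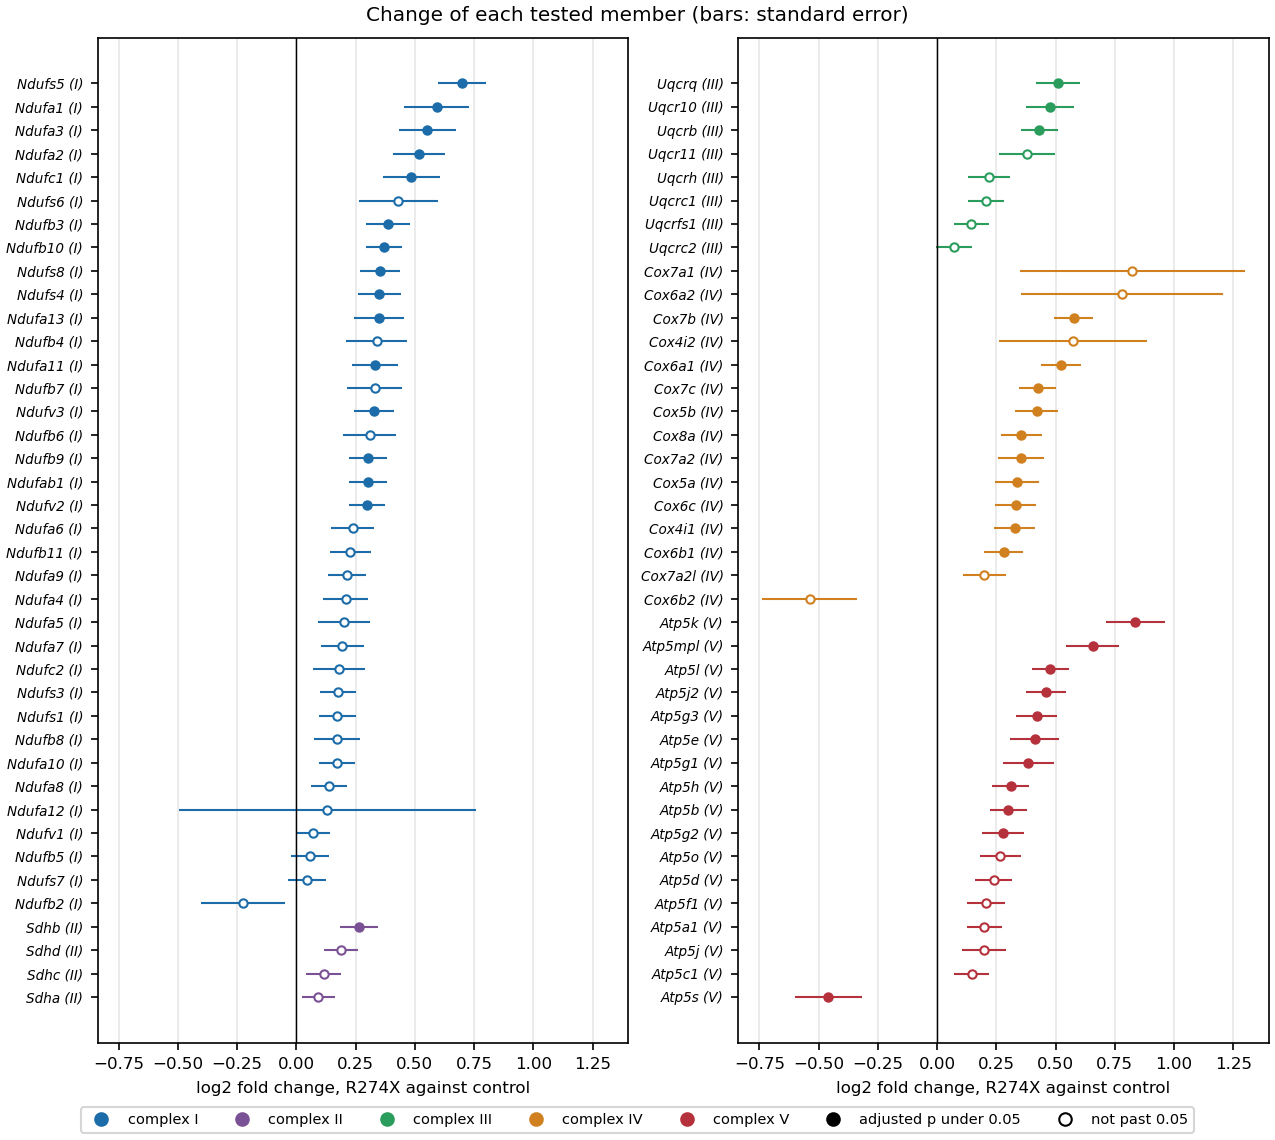
Points give the log2 fold change of each tested member, R274X against control, with bars for the standard error; filled points have an adjusted p under 0.05. In complex IV the general subunits are filled except Cox7a2l, while the core proteins of complex III are open and lie nearer to 0. Of the tested members 1 is not drawn.

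Complex IV, cytochrome c oxidase, had 10 higher members of 15 tested, with a median log2 fold change of 0.36. With the length offset 7 of the 15 were higher, and 1, Cox6b2, was lower. All 10 were among its 11 general subunits, those used in most tissues, and the remaining one was Cox7a2l (0.20, adjusted p = 0.144), known as a supercomplex factor. Cox7b (chromosome X, 106015700 to 106022450, GRCm38) measured 134.0, 123.0 and 121.7 CPM in controls and 209.2, 177.0 and 178.2 CPM in R274X libraries. Its groups were far apart, with a log2 fold change of 0.58 ± 0.083 (SE) and an adjusted p of 0.0009, the smallest among the members.

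Cox6a1, whose promoter stretch is printed above, measured 314.3, 289.4 and 305.0 CPM in controls and 480.0, 431.2 and 393.2 CPM in R274X libraries (log2 fold change 0.52 ± 0.0852, SE; adjusted p = 0.00179). The groups did not overlap. Cox7c rose by a log2 fold change of 0.42 (adjusted p = 0.00347) and Cox5b, the zinc-binding subunit, by 0.42 (adjusted p = 0.00762). Cox4i1, which takes part in regulation of the enzyme by ATP, rose from 519 ± 24.4 to 651 ± 67.8 CPM (mean ± SD of 3 libraries each; adjusted p = 0.0228). Cox5a, Cox6b1, Cox7a2 and Cox8a also passed, with log2 fold changes from 0.28 to 0.36. With the length offset Cox5a passed, and Cox6b1 (adjusted p = 0.287), Cox7a2 (0.0849) and Cox8a (0.132) did not.

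The 7 isoforms of complex IV subunits known mainly from heart, skeletal muscle, lung or testis gave 0 calls by edgeR, and 4 of them were tested. Cox7b2, Cox8b and Cox8c had 0 counts in all 6 libraries. Cox6a2, the heart and muscle counterpart of Cox6a1, measured 27.3, 13.6 and 29.9 CPM in controls and 50.1, 45.3 and 26.2 CPM in R274X libraries. These groups overlap (log2 fold change 0.78 ± 0.425, SE; adjusted p = 0.299). At 34.5 ± 12.9 FPKM in controls against 428 ± 19.5 for Cox6a1 (SD, n = 3 each), it was a minor isoform per length.

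Cox6b2, the testis counterpart of Cox6b1, measured 26.8, 34.2 and 31.2 CPM in controls and 25.9, 14.8 and 22.8 CPM in R274X libraries. All R274X libraries lay below all controls, but the adjusted p was 0.107 with TMM scaling. It was 0.0484 with an offset for gene length, and ran from 5.51e-05 to 0.982 over 21 alternatives. Cox4i2, linked to low oxygen and lung, was at 1.60 ± 0.285 and 2.39 ± 0.277 CPM (mean ± SD of 3 libraries each; adjusted p = 0.227). Cox7a1, known from muscle, was at 0.961 ± 0.268 and 1.70 ± 0.898 CPM (mean ± SD of 3 libraries each; adjusted p = 0.254). Beside these isoforms, 4 muscle marker genes summed to at most 1.1 CPM in any library, with at most 9 counts.

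Complex V, the ATP synthase, had 10 higher members and 1 lower of 17 tested, with a median log2 fold change of 0.30. Its 4 small membrane subunits all passed and had a median of 0.57. Atp5k, subunit e of the membrane part (chromosome 5, 108433244 to 108434448, GRCm38), measured 28.5, 26.4 and 23.7 CPM in controls and 51.6, 50.7 and 37.9 CPM in R274X libraries. It was 1.78-fold higher, the largest change among members that passed, with a log2 fold change of 0.84 ± 0.124 (SE) and an adjusted p of 0.00127.

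Atp5mpl, a small proteolipid of the membrane part, measured 96.3, 76.5 and 73.3 CPM in controls and 140.3, 132.7 and 114.6 CPM in R274X libraries (adjusted p = 0.00395). The groups did not overlap. Atp5l, subunit g, rose from 127 ± 5.21 to 177 ± 14.8 CPM (mean ± SD of 3 libraries each; adjusted p = 0.00184). Atp5j2, subunit f, rose from 170 ± 10.7 to 233 ± 22.9 CPM (mean ± SD of 3 libraries each; adjusted p = 0.0036).

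The 3 genes for subunit c, which make the same mature ring protein with different leader peptides, all passed with TMM scaling on all 6 libraries. Atp5g3 rose by a log2 fold change of 0.42 (adjusted p = 0.00693), Atp5g1 by 0.38 (adjusted p = 0.032) and Atp5g2 by 0.28 (adjusted p = 0.0477). Atp5g2 did not pass with the length offset (adjusted p = 0.1), and Atp5g1 and Atp5g2 each passed in 1 of the 6 fits that leave out a library. In the catalytic part, Atp5b, the catalytic beta subunit, measured 1009, 1030 and 990 CPM in controls and 1287, 1306 and 1138 CPM in R274X libraries (adjusted p = 0.0207). The alpha subunit gene Atp5a1 had a log2 fold change of 0.20 ± 0.0744 (SE) and did not pass (adjusted p = 0.0817), although its groups did not overlap. Of the 4 tested genes of the peripheral stalk, 1 passed, Atp5h, at 0.31 (adjusted p = 0.0188).

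Atp5s, also called factor B, which is not a structural subunit, was the 1 member that passed the test as lower. It measured 17.5, 16.8 and 19.1 CPM in controls and 12.9, 10.7 and 15.1 CPM in R274X libraries, with no overlap. Its log2 fold change was -0.46 ± 0.142 (SE) and its adjusted p 0.041, and it passed in 1 of the 6 fits that leave out a library. It did not pass with DESeq2 (adjusted p = 0.0573), where the 1 lower member was Cox6b2, with limma-voom (0.0527) or with robust fitting switched off (0.0586).

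Per length, complex IV genes led. The levels here are the authors' FPKM, which are counts over a gene length and a library size that was scaled between libraries. That length equalled the merged exon length in 76 of the 82 members with counts. It was shorter for Cox8a, at 545 bases against 619, and for Cox7a2l, at 1147 against 1478, which raises their FPKM. In controls Cox8a stood at 723 ± 48.9 FPKM, followed by Cox6a1 at 428 ± 19.5, Cox7a2l at 377 ± 36.0 and Cox4i1 at 332 ± 17.5 (SD, n = 3 each). The ranges of mean ± SD overlap for Cox6a1 and Cox7a2l, and for Cox7a2l and Cox4i1. These genes were measured in the same 3 libraries, and the differences between them were not tested. In controls the highest in complex V was Atp5a1, at 266 ± 4.91 FPKM, in complex I Ndufb11 at 202 ± 8.31, in complex III Uqcr10 at 184 ± 12.4 and in complex II Sdhd at 138 ± 1.90 (SD, n = 3 each). The lowest tested members were Cox7a1 at 1.78 ± 0.499, Ndufb2 at 1.89 ± 0.365 and Cox4i2 at 2.02 ± 0.346 FPKM (SD, n = 3 each), which do not differ beyond their spread. The merged exons of Ndufb2 and Atp5l span 5.628 kb and 6.443 kb, which lowers their FPKM beside genes with short models.

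**Figure D3:**
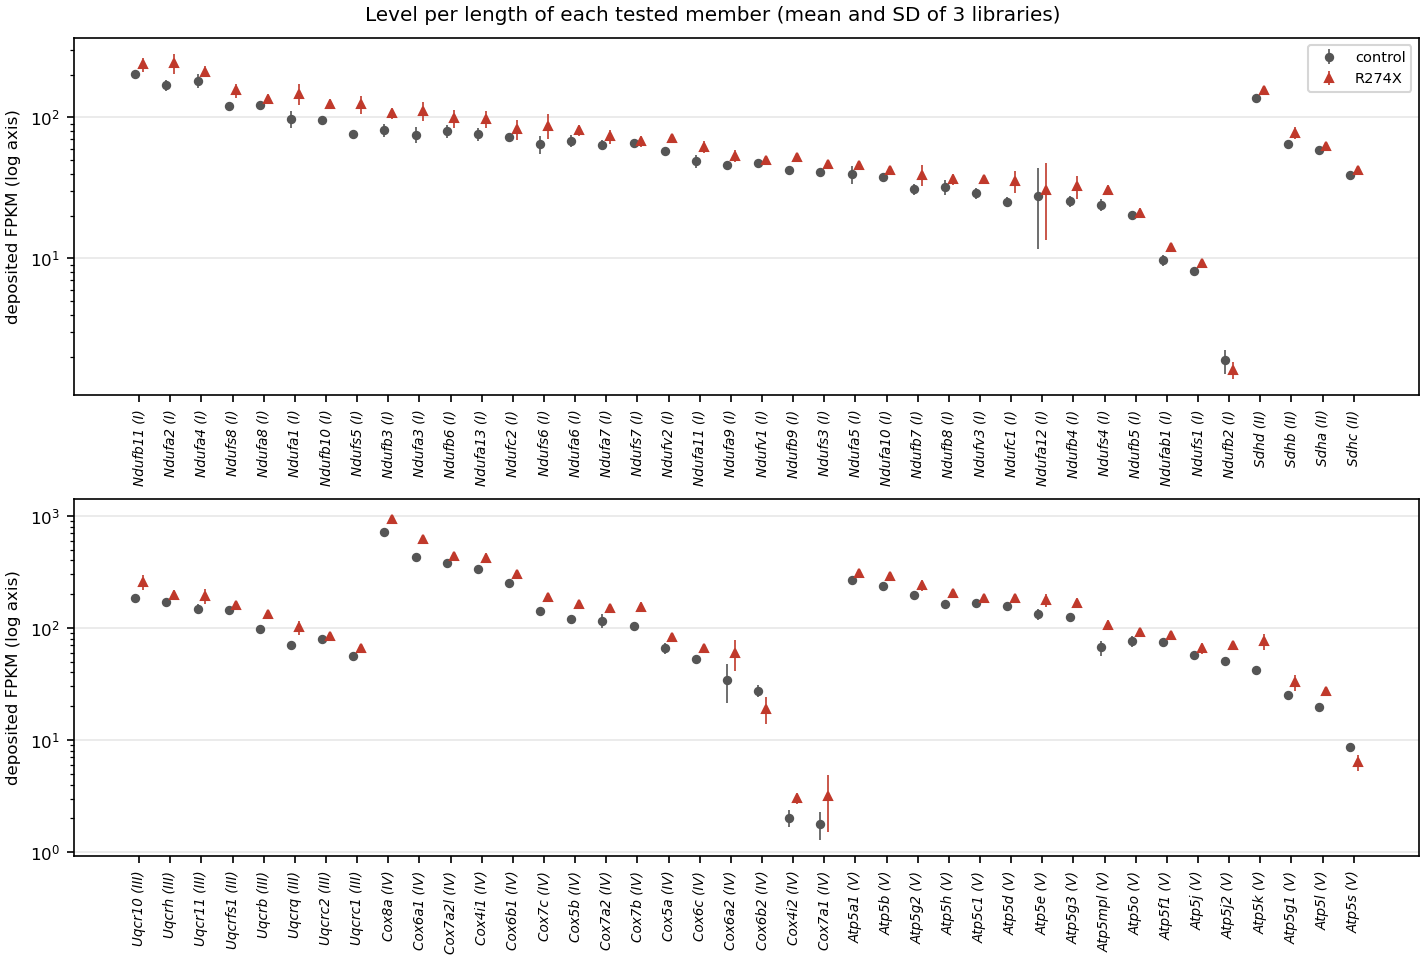
Symbols give the mean deposited FPKM of each tested member on a log axis, with bars for the SD of 3 libraries, controls as circles and R274X libraries as triangles, sorted within each complex. Cox8a is highest at 723 FPKM in controls, and Cox7a1, Ndufb2 and Cox4i2 are lowest, near 2. Of the tested members 1 is not drawn.

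Gene length moved with the change, in the members and in all genes. The tested members had a median of 1.587 kb of exons, against 3.856 kb over all tested genes. All tested genes were split by length into 10 bins of equal size, and their median log2 fold change went from 0.20 in the shortest bin to -0.14 in the longest. Members sat above the median of all genes in each of the 9 bins that hold a member. In the shortest bin, 22 members had a median of 0.43 against 0.20, in the next bin 24 had 0.29 against 0.11 and in the one after 14 had 0.26 against 0.05. The bins beyond these hold 1 to 6 members each, so their medians rest on few genes.

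Across the 81 members, length on a log2 scale and log2 fold change had a Pearson's r of -0.40 and a Spearman's rho of -0.47, given as a description of genes that share the same 6 libraries. With an offset that removes each library's own trend with length, these were -0.08 and -0.08. With that offset 31 members passed as higher and 2 as lower, beside 10.4% and 6.51% of all genes, 29 of the 39 were shared, and the median was 0.22 against 0.00 over all genes. The 2 lower ones were Atp5s and Cox6b2. The 10 that did not pass with the offset were Atp5g2, Cox6b1, Cox7a2, Cox8a, Ndufa11, Ndufa13, Ndufb3, Ndufb9, Ndufs8 and Sdhb. By complex the offset gave 11 higher members in complex I, 0 in II, 4 in III, 7 in IV and 9 in V. The 41 members at or below the median length had 24 higher without the offset and 16 with it, and the 40 longer members had 15 and 15. Over all tested genes without the offset, 11.8% were higher in the shortest of the 10 bins of length. In the next bin 15.5% were higher, and in the longest 3.76%.

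**Figure D4:**
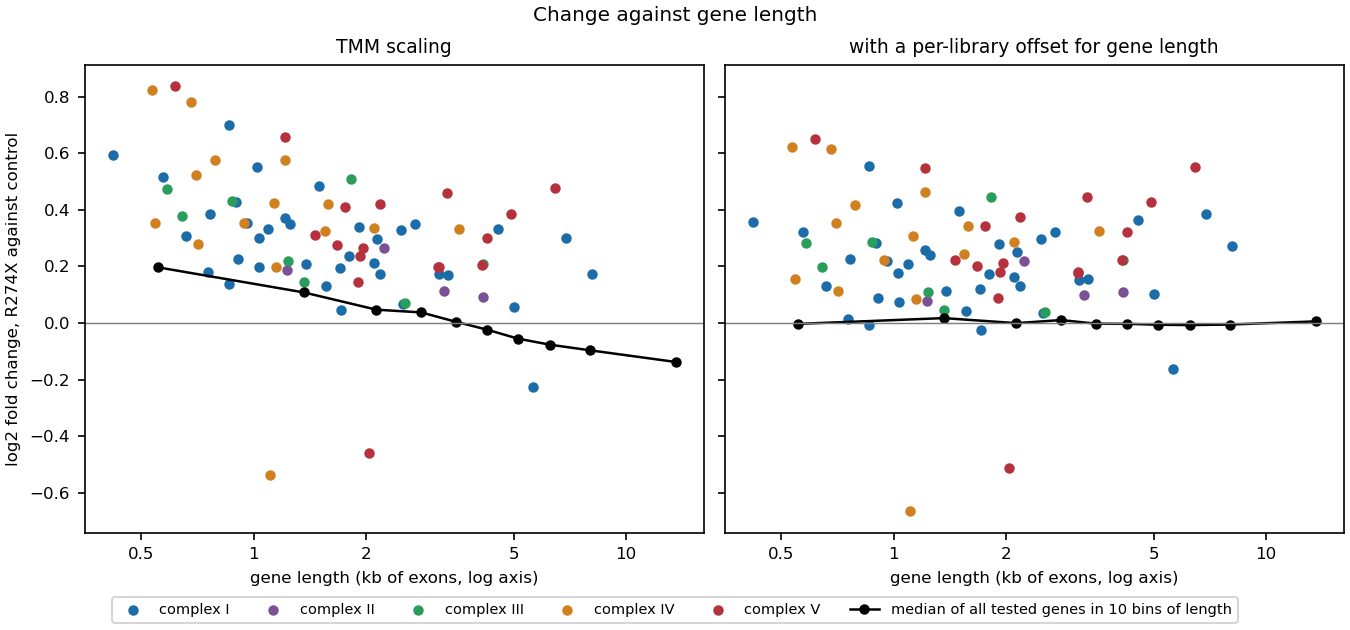
Each point is a tested member, with exon length on a log axis and log2 fold change, R274X against control, for TMM scaling (left) and with a per-library offset for length (right). The black line joins the medians of all tested genes in 10 bins of length and runs from 0.20 to -0.14 on the left and near 0 on the right, and most members lie above it in both. Of the tested members 1 is not drawn.

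Some members kept their call through most settings, and others did not. Of the 39 higher members, 6 passed in only 1 of the 6 fits that leave out a library: Atp5b, Atp5g1, Atp5g2, Cox6b1, Ndufa13 and Sdhb. In every fit that leaves out a library, 12 passed: Atp5g3, Atp5j2, Atp5k, Atp5l, Atp5mpl, Cox6a1, Cox7b, Cox7c, Ndufb10, Ndufs5, Uqcrb and Uqcrq. All 12 also passed with the length offset, and 11, without Ndufb10, with total-count scaling. In all 18 alternative settings other than those added after the data were seen, 5 passed: Atp5k, Atp5l, Cox7b, Ndufs5 and Uqcrb. None of these genes passed with the immunoglobulin percent as a covariate. The share of all tested genes that kept a call through the same sets of settings was not counted. Whether members kept theirs more often than other called genes therefore cannot be read from these numbers.

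**Figure D5:**
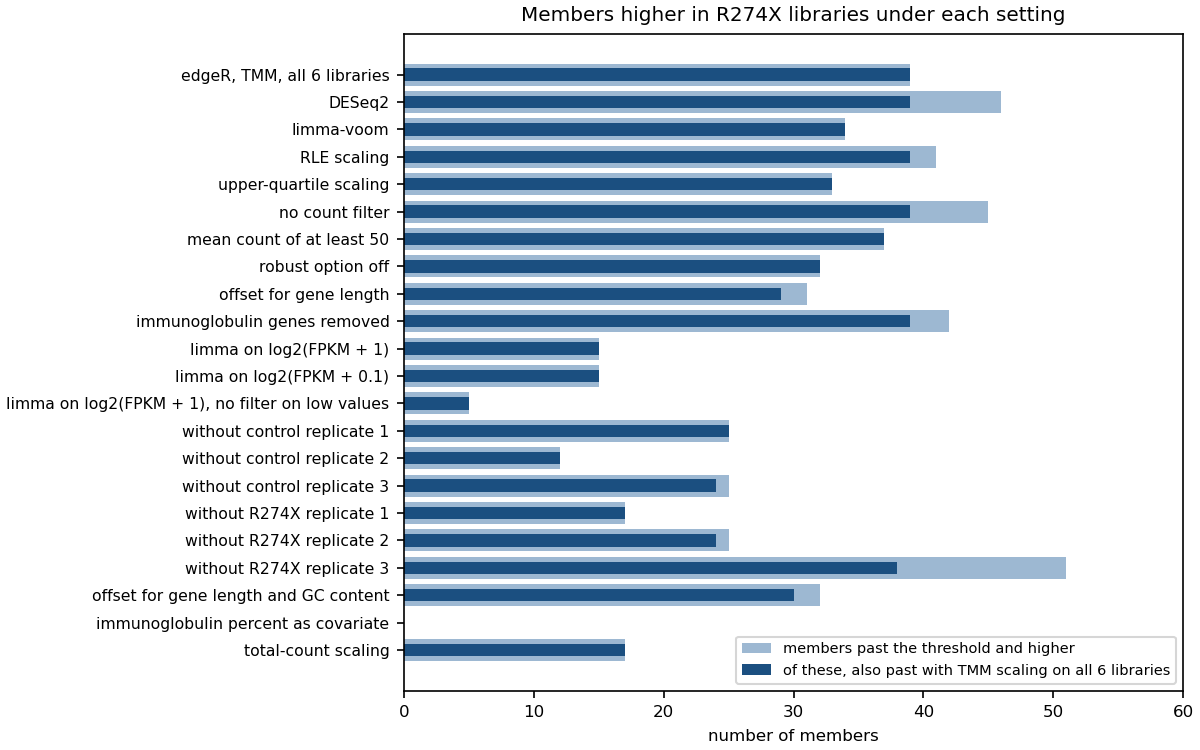
Bars give the number of members past the threshold and higher in R274X libraries under each setting, and dark bars those that also passed with TMM scaling on all 6 libraries. The count runs from 0 with the immunoglobulin percent as a covariate to 51 without R274X library 3, beside 39 with TMM on all libraries.

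Genes around the chain were read from lists of mitochondrial function. Of 46 tested assembly factors of the complexes, 0 were higher and 1 lower by edgeR, with a median of 0.07. The lower one, Bcs1l, which inserts the Rieske protein into complex III, stood at -0.27 on the log2 scale (adjusted p = 0.0474). Next by p were Atpaf2, an assembly factor of the ATP synthase (0.28, adjusted p = 0.0524), and Ndufaf8 (0.28, adjusted p = 0.068), neither past the threshold. Higher assembly factors numbered 1 each with DESeq2, RLE and immunoglobulin genes removed. They numbered 2 with the count filter removed and 6 without R274X library 3. Of all genes, 6.73%, 10.4%, 10.5%, 6.81% and 12.5% were higher in these fits, in the same order. The 13 mitochondrially encoded subunits had 0 calls by edgeR in either direction and a median of -0.05, with log2 fold changes from -0.43 to 0.30.

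Of 24 tested genes of mitochondrial protein import, 8 were higher and 0 lower, with a median of 0.24. They included Grpel1, a cofactor of the import motor (0.37, adjusted p = 0.00509), Dnajc19 (0.58, adjusted p = 0.00637) and Timm50 (0.33, adjusted p = 0.00707). Of 17 citrate cycle genes 3 were higher, among them Fh1 (0.37, adjusted p = 0.00463) and Cs (0.23, adjusted p = 0.0365). Fh1 makes malate from fumarate, and Cs makes citrate.

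Of 18 genes for electron carriers and ubiquinone synthesis, 2 were higher and 1 lower. Cytochrome c1 (Cyc1), a catalytic subunit of complex III whose symbol is outside the rule, rose by 0.29 (adjusted p = 0.0115), and cytochrome c (Cycs) by 0.31 (adjusted p = 0.0145). Coq8a, needed for ubiquinone synthesis, fell by 0.50 on the log2 scale (adjusted p = 0.00516). Of 17 regulators of mitochondrial biogenesis, 0 were higher and 2 lower. Myc, a transcription factor that drives growth, fell by 0.74 (adjusted p = 0.000855) and Hcfc1 fell by 0.29 (adjusted p = 0.0212). Nrf1, whose letters are printed above, had a log2 fold change of 0.16 and did not pass (adjusted p = 0.201). The 6 lists together gave 13 higher and 4 lower of 135 tested genes, with a median of 0.05. That is 9.63% higher, beside 10.1% of all tested genes, and by list 33.3% in protein import, 17.6% in the citrate cycle and 11.1% in carriers and ubiquinone synthesis.

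Markers of other cell types moved with the genotype as well. Summed B cell markers ran from 354 to 845 CPM in controls and from 1578 to 3235 CPM in R274X libraries, and plasma cell markers from 307 to 878 and from 2049 to 4651 CPM. Macrophage and monocyte markers ran from 650 to 850 and from 1827 to 3025 CPM, and erythroid markers from 811 to 1194 and from 1845 to 3156 CPM. Markers of plasmacytoid and other dendritic cells ran from 602 to 640 and from 656 to 693 CPM. Flt3 makes up most of that sum and was lower, at 407 ± 18.8 CPM in controls and 320 ± 17.0 in R274X libraries (SD, n = 3 each). The other 5 of these 6 genes were higher, among them Siglech, at 9.44 ± 2.89 and 30.8 ± 6.98 CPM (SD, n = 3 each), and the median log2 fold change of the list was 0.78. Sums of T and NK cell markers were 156 to 175 CPM in controls and 99.2 to 134 CPM in R274X libraries, with Nkg7 lower and 4 of the 6 genes higher. Nkg7 makes up most of that sum, at 151 ± 12.6 CPM in controls and 88.4 ± 13.3 in R274X libraries (SD, n = 3 each). The median log2 fold change of the T and NK cell list was 1.49. Sums of neutrophil markers overlapped, at 16790 to 28175 and 12678 to 33379 CPM. Each of these lists except the neutrophil one had members past the test, and no marker in them was at 0 in all libraries. Of the 53 tested markers 52.8% passed as higher, beside 10.1% of all tested genes. The part of these cells in the members' levels was not tested.

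Counting can also touch single members. The sources used here do not say whether reads kept their strand, and 11 tested members share at least 10% of their exon bases with another gene. Among tested members the largest overlaps were Ndufb6 with Smim27 (39.0%) and Ndufa13 with Tssk6 (30.0%), both chosen after their values were seen, and their counts are uncertain in part. Smim27 and Tssk6 had 728 and 429 counts over all libraries. More counts lay in Rbm10 beside Ndufb11 (9041), Gabpa beside Atp5j (4749) and Tmco6 beside Ndufa2 (2735). The same held for Mrpl47 beside Ndufb5 (2295) and Itgad beside Cox6a2 (2116), while the remaining partners had fewer. A second Ensembl gene also called Atp5o, an untested member that shares 54.2% of its exon bases with Donson, had 0 counts in every library.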

How the data were processed

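RNA was measured in 6 bulk libraries. Each deposited file gives a count (whole numbers) and an FPKM column by Ensembl gene, per the file headers. The submitters' processing notes name Bowtie and the build mm8, and no source used here gives the counting tool or the annotation. Gene lengths implied by the authors' counts and FPKM equalled GENCODE M21 (GRCm38) merged exon lengths within 0.01% for 94.9% of genes with enough counts, so positions given are GRCm38. The authors' FPKM library sizes matched median-ratio size factors in all 6 libraries. No column was left unassigned to a library.

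Symbols and biotypes came from that annotation, which matched 54409 of 54532 identifiers. Counts were tested with edgeR 4.0.16 in R 4.3.3 (TMM, filterByExpr with a minimum count of 10, robust quasi-likelihood fit, Benjamini-Hochberg adjustment over all tested genes, two-sided), and SE is the log2 fold change over the root of F. Replicates differed by at least 12.05 in chi-square per gene. Depth limits the precision of genes with few counts, and the reads carry no molecular identifiers. With 3 libraries against 3, an exact permutation test of a single value cannot go below 0.1, so none was used. The scripts were tested on simulated data.

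As 18 alternative settings, the counts or FPKM were refitted with DESeq2 1.42.0, limma-voom (limma 3.58.1), scaling by RLE or by upper quartiles, the count filter removed or raised to a mean of 50, robust fitting switched off, a length offset (lowess per library, span 0.3), immunoglobulin genes removed, limma on log2 of FPKM plus 1 or plus 0.1 (mean FPKM of at least 0.5, or unfiltered) and leaving out each library. Another 3 were added after the data were seen: an offset for length and GC content, the immunoglobulin percent as a covariate, and total-count scaling. Named members were, in each complex, the 4 with the smallest p, the lowest change and the highest FPKM, plus a fixed set of catalytic subunits and isoform pairs; other lists gave up to 3 genes with the smallest p. Genes named beyond that rule complete small counts, carry a promoter match or were singled out after their values were seen. In the text, 1 member is counted but neither named nor plotted gene by gene, and 1 gene of another list is counted but not named. The members and all lists were chosen with earlier results of these data known.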

Additional observations from a re-analysis of the deposited data

How the results depend on the processing

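No paired analysis was possible because the labels give no replicate numbers shared between the groups. Of the settings on all 6 libraries that start from counts, DESeq2 (46 higher), limma-voom (34), RLE (41), upper-quartile scaling (33), the count filter removed (45) or raised to a mean of 50 (37), robust fitting switched off (32), the length offset (31), length and GC (32) and removal of immunoglobulin genes (42) kept the number of higher members within 1.5 times of 39. DESeq2 gave no adjusted p for 1 member. The share of all genes called higher was 6.73% with DESeq2, 9.29% with limma-voom, 10.4% with RLE and 8.32% with upper quartiles. It was 6.81% with the count filter removed, 10.8% with it raised and 9.47% with robust fitting switched off. Both offsets gave 10.4%, and removal of immunoglobulin genes 10.5%. With limma on log2 of FPKM the number was 15 with either pseudocount and 5 without a filter, with 1581, 1548 and 611 genes called in all. In these fits 7.24%, 7.1% and 1.63% of all genes were called higher. The immunoglobulin covariate gave 0 and total-count scaling 17, with 75 and 4054 genes called in all. Of all genes, 0.465% and 6.17% were called higher. Leaving out a library gave 12 to 51 higher members, 0 or 1 lower, and 1218 to 3295 genes called in all, and each such fit has fewer libraries. Lower members numbered 0 with limma-voom, the robust option off, all 3 limma fits on FPKM and the immunoglobulin covariate, and 2 with no count filter, both offsets and total-count scaling. The 1 lower member was Cox6b2 with DESeq2, in place of Atp5s.

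By complex, the 3 limma fits on FPKM (plus 1, plus 0.1, unfiltered) gave 3, 3 and 1 higher members in complex I, 0 each in complex II, 4, 4 and 1 in complex IV and 6, 6 and 2 in complex V, and the unfiltered fit gave 1 in complex III. The immunoglobulin covariate gave 0 in every complex. Total-count scaling gave 5 in complex I, 0 in complex II, 4 in complex IV and 5 in complex V. Complex II had 0 also with limma-voom, upper-quartile scaling, the robust option off and both offsets, and DESeq2 gave 5 in complex III. Leaving out a library gave 2 to 20 higher members in complex I, 0 to 2 in complex II, 2 to 6 in complex III, 3 to 11 in complex IV and 5 to 12 in complex V.

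Medians of log2 fold change moved with the immunoglobulin covariate to 0.068 over all members and to 0.064, -0.021, 0.022, 0.084 and 0.12 in complexes I to V. With total-count scaling they were 0.13 over all members and 0.13, -0.019, 0.13, 0.19 and 0.13. The length offset gave 0.18 in complex I and 0.10 in complex II, and length with GC gave 0.19 and 0.095. Leaving out a library gave 0.18 to 0.32 in complex I.

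In the other mitochondrial lists, higher genes numbered 4 with the unfiltered limma fit, 0 with the immunoglobulin covariate and 3 with total-count scaling, and 5 to 24 without a library. Lower ones numbered 7 with no count filter, 2 with either filtered limma fit, 1 with the unfiltered one, 0 with the covariate, 17 with total-count scaling and 2 to 5 without a library. Over all genes, total-count scaling called 6.17% higher and 21.6% lower, and the unfiltered limma fit 1.63% and 0.804%. With no count filter 6.11% of all genes were lower, and without a library 3.37% to 9.39%. Markers of other cell types gave 14 higher genes with the unfiltered limma fit, 0 with the covariate and 13 to 28 without a library.

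Single named members changed sign as follows. With the immunoglobulin covariate the log2 fold change was -0.0002 for Atp5b, -0.080 for Atp5g2, -0.069 for Atp5j, 0.16 for Atp5s, -0.025 for Cox4i1, -0.0038 for Cox5a, -0.975 for Cox6a2, -0.039 for Cox6b1, 0.16 for Cox6b2, -2.01 for Cox7a1 and -0.25 for Cox7a2l. It was -0.13 for Ndufa10, -1.01 for Ndufa12, -0.066 for Ndufa6, -0.086 for Ndufa9, -0.069 for Ndufb11, -0.069 for Ndufb4, -0.22 for Ndufb5, -0.039 for Ndufb6, -0.26 for Ndufb8, -0.20 for Ndufc2 and -0.045 for Ndufv1. For Sdha, Sdhc and Sdhd it was -0.029, -0.041 and -0.013, and for Uqcrc2, Uqcrfs1 and Uqcrh it was -0.14, -0.12 and -0.14.

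With total-count scaling it was -0.024 for Atp5c1, -0.045 for Ndufa12, -0.033 for Ndufa8, -0.11 for Ndufb5, -0.12 for Ndufs7, -0.10 for Ndufv1, -0.077 for Sdha, -0.055 for Sdhc, -0.10 for Uqcrc2 and -0.027 for Uqcrfs1. With the length offset it was -0.0085 for Ndufa8 and -0.026 for Ndufs7, and with length and GC -0.0040 for Ndufa8. Without a library in turn it ran from -0.42 to 0.69 for Ndufa12, from -0.0083 to 0.11 for Ndufb5 and from -0.025 to 0.11 for Ndufs7. The cause of these changes was not tested. With 3 libraries a group, small steps in genes of few counts, such as Cox7a1 and Cox4i2, could not be resolved.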
